A study of Drosophila melanogaster with 9 samples.

Results

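The 9 genes described here belong to the circadian clock of Drosophila melanogaster: per, tim, vri, Pdp1, cwo, Clk, cyc, cry and Pdf. They were chosen by their deposited gene name, and all 9 were found among the 13140 genes with read counts and passed the filter on low counts. Polyadenylated RNA of whole adult flies was sequenced in 9 libraries, 3 in each of 3 groups. All flies were wild-type in genotype, of the Canton S background and aged 10 to 11 days, and the groups differed in their ancestors. The GP/P group had an obese grandfather and a heterozygous father. The GP/M group had an obese grandfather and a heterozygous mother. The WT group had neither an obese grandparent nor a heterozygous parent. The series title ties the obese ancestors to mutation of AKHR, the adipokinetic hormone receptor, which mobilises stored fat. The series design assigns 1 library of each group to each of 3 repeats of the experiment. Libraries with the same number are therefore called a set (set 3, set 2 and set 1), and set 1 holds GP/P 1, GP/M 1 and WT 1.

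The fly clock is a transcriptional feedback loop. The proteins CLK and CYC bind E-box sequences and drive per, tim, vri, Pdp1 and cwo, whose transcripts peak from dusk into the night. PER and TIM return to the nucleus to silence CLK and CYC. Counts here are per gene and do not separate the transcripts of a gene. VRI and PDP1 act in turn on Clk, whose transcript, like that of cry, peaks in the opposite phase, around dawn. Many tissues hold this loop, among them the eye, the fat body and the Malpighian tubules, so whole-fly RNA sums over several clocks. In whole flies, fewer cells of a type and less RNA per cell cannot be told apart. The hour at which the flies were frozen, their sex and the number of flies per library were not given in the sources used here.

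Library totals were 21777434 to 28166388 counts, of which 19722 to 27165 came from the 9 clock genes. Levels are given as CPM (counts scaled to a common library total after TMM normalisation), with factors of 0.991 to 1.01. The submitters name the libraries of a group as independent replicates, and p-values measure the spread between these libraries. Markers of photoreceptors summed to 9850 to 10600 CPM (8 genes), and those of glia to 573 to 609 CPM (5 genes). The neuron markers (5 genes) summed to 476 to 508 CPM in set 3, 432 to 455 CPM in set 2 and 421 to 451 CPM in set 1. The fat body markers (3 of 5 listed genes were matched) summed to 3500 to 4050 CPM in set 3, 3080 to 3200 CPM in set 2 and 2830 to 2890 CPM in set 1. Male markers summed to 2620 to 2930 CPM (6 genes) and female markers to 13.5 to 25.1 CPM (5 genes). No matched marker was at 0 in all libraries.

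Per kilobase of exon, cry had the highest mean level of the 9 genes, 109 CPM per kb. It was followed by tim at 27.4, cyc at 21.0, Pdp1 at 19.9, vri at 18.4, cwo at 15.9, Pdf at 12.96, Clk at 10.2 and per at 5.06 CPM per kb. This order uses the whole annotated exon length of a gene, 12138 bases for Pdp1 and 680 bases for Pdf, and so takes no account of which transcripts the flies made. The annotated exons of cry overlap those of other genes over 17.8% of their length, those of tim over 9.89% and those of per over 1.08%, and the other 6 genes have no such overlap. How strand entered the counting was not given in the sources used here. Reads in those stretches could belong to the neighbour.

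The gene per encodes the repressor PERIOD. It had 22.9, 25.6 and 22.9 CPM in GP/P libraries 1, 2 and 3, 21.3, 24.3 and 23.2 CPM in GP/M libraries and 18.4, 25.5 and 21.9 CPM in WT libraries, in the same order of libraries here and for the other genes. The highest library of each group was that of set 2, and the lowest value was that of WT 1. The groups overlapped throughout.

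The gene tim encodes TIMELESS, the light-sensitive partner of PER. It had 192, 225 and 210.0 CPM in GP/P libraries, 124, 240.0 and 190 CPM in GP/M libraries and 122, 253 and 178 CPM in WT libraries. GP/M 1 and WT 1 stood well below the other 7 libraries, and WT 2 had the highest value, 2.08 times the lowest. Each library held 3071 to 6050 counts of tim, whose counting error was 1.29% to 1.81% of the value.

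The genes vri, Pdp1 and cwo belong to the further loops of the clock. The transcript of vri, a bZIP repressor of Clk, had 82.7, 98.4 and 90.1 CPM in GP/P libraries, 69.6, 97.7 and 90.0 CPM in GP/M libraries and 71.8, 101 and 83.7 CPM in WT libraries. The transcript of Pdp1, a bZIP activator of Clk, had 233, 250.0 and 260.2 CPM in GP/P libraries, 199, 253 and 251 CPM in GP/M libraries and 220.1, 248 and 262 CPM in WT libraries. Both were lowest in set 1 within every group, and vri was highest in set 2 within every group. The transcript of cwo, a repressor that competes at E-boxes, had 81.2, 77.0 and 83.5 CPM in GP/P libraries, 74.4, 80.4 and 103 CPM in GP/M libraries and 70.6, 93.4 and 64.8 CPM in WT libraries. Its highest and lowest libraries, GP/M 3 and WT 3, were both of set 3.

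The activator gene Clk had 48.1, 45.7 and 48.7 CPM in GP/P libraries, 49.2, 38.8 and 53.5 CPM in GP/M libraries and 44.2, 42.2 and 45.8 CPM in WT libraries. Within every group the library of set 2 was the lowest. The other activator gene, cyc, whose transcript is known to cycle little, stayed between 33.8 and 36.2 CPM in GP/P, 32.5 and 35.4 CPM in GP/M, and 32.9 and 34.4 CPM in WT libraries. The transcript of cry, the blue-light photoreceptor that triggers the loss of TIM, had 192, 208 and 213 CPM in GP/P libraries, 213, 201 and 208 CPM in GP/M libraries and 219, 194 and 210.1 CPM in WT libraries. In GP/M and WT libraries cry was lowest in set 2, and in GP/P libraries it was lowest in set 1.

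Pdf encodes the neuropeptide by which the ventral lateral neurons of the brain synchronise other clock neurons. It had 10.2, 8.41 and 7.88 CPM in GP/P libraries, 8.96, 8.66 and 8.28 CPM in GP/M libraries and 9.62, 9.41 and 7.92 CPM in WT libraries. In every group set 3 was lowest and set 1 highest. These values rested on 172 to 243 counts per library, with a counting error of 6.4% to 7.6%.

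**Figure D1:**
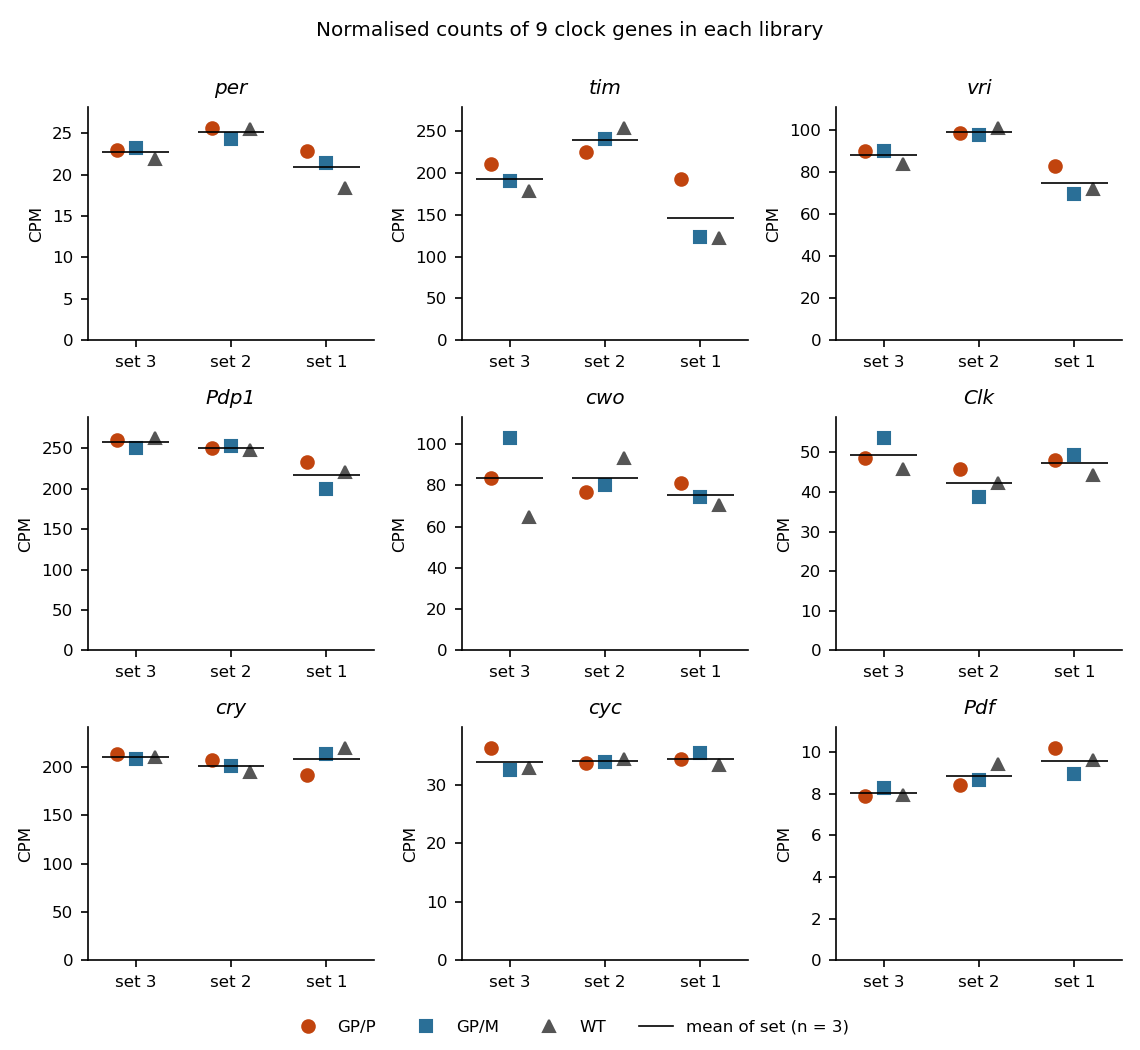
CPM (vertical) of each of the 9 clock genes in the 9 libraries, placed by set (3, 2, 1) and marked by group (GP/P, GP/M, WT), with a line for the mean of each set (n = 3). The points of tim lie between 122 and 253 CPM, highest in set 2, whereas those of cyc lie between 32.5 and 36.2 CPM.

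The clock genes differed widely in how much they varied over the 9 libraries. The SD of log2 CPM was 0.38 for tim, and 99.5% of the 11795 genes that averaged 1 or more in log2 CPM varied less. It was 0.20 for cwo, 0.19 for vri, 0.15 for per, 0.14 for Clk, 0.13 for Pdp1 and 0.13 for Pdf, against a median of 0.09 for those genes. The values of cry (0.06) and cyc (0.05) were below that median, with 25.4% and 12.2% of genes having a smaller SD. Among the 850 genes of similar level, 99.6% varied less than tim, and among those near vri and cwo 98.2% and 98.4% did. Near per, Clk and Pdp1 the share was 92.6%, 90.8% and 89.9%. It was 63.0% near Pdf, 51.4% near cry and 11.0% near cyc, so the spread of cry was close to the middle for its level.

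The sets accounted for most of the variation of 6 of the 9 genes. Their share of the sum of squares of log2 CPM was 85.3% for vri, 78.9% for Pdp1, 74.1% for Pdf, 72.1% for tim, 65.8% for per and 54.8% for Clk, against a median of 43.6% over genes. For cry it was 21.8%, for cwo 11.8% and for cyc 4.59%. The share of the groups of descent ran from 3.16% for Pdf to 22.9% for cyc, and its median over genes was 14.5%. The shares of cyc divide a small spread, an SD of 0.05, where the counting error alone was 3.1% to 3.7% of the value.

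**Figure D2:**
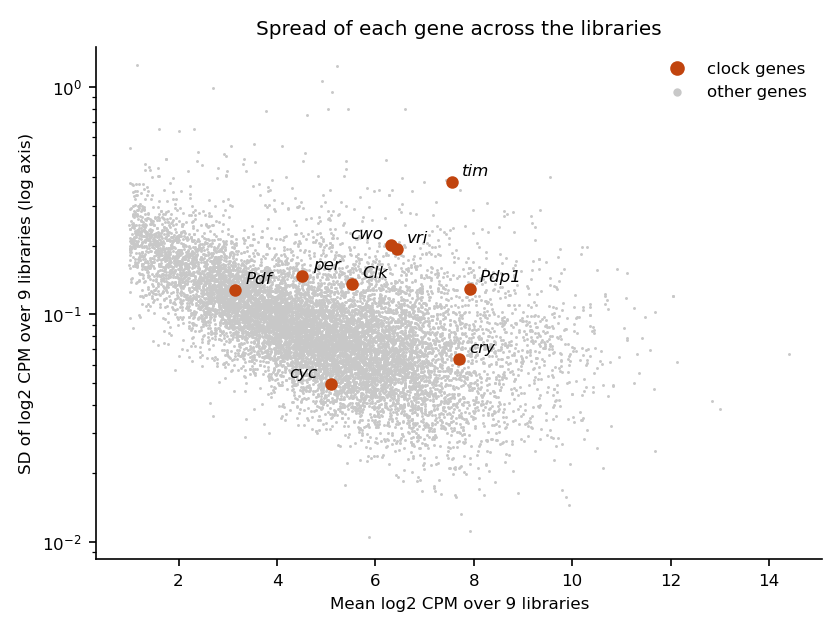
SD of log2 CPM over the 9 libraries (vertical, log axis) against mean log2 CPM for all genes whose mean is 1 or more (grey) and for the 9 clock genes (named). The point of tim, at an SD of 0.38, lies at the upper edge of the cloud, and cry (0.06) and cyc (0.05) lie in or under its middle.

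The first question of the design is whether descent from an obese grandfather, through the father or through the mother, altered transcript levels. No clock gene was called between groups in any of the 3 comparisons. In GP/P against WT libraries, 0 of 9 clock genes had an adjusted p under 0.05 by edgeR's quasi-likelihood test with Benjamini-Hochberg adjustment, where 0.0% of 12913 genes did. In GP/M against WT, and in GP/P against GP/M, the count was also 0 of 9, beside 0.0% of genes each. At an unadjusted p under 0.05, 334 genes passed in GP/P against WT (2.59%), 198 in GP/M against WT (1.53%) and 220 in GP/P against GP/M (1.7%), and no clock gene was among them. DESeq2 and limma-voom also called 0 genes in each comparison, with 168, 77 and 90 genes (DESeq2) and 331, 194 and 212 genes (limma-voom) at an unadjusted p under 0.05. The comparisons share libraries, so they are not independent of each other.

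In this fit, which has no term for the set, the fold changes of the clock genes were small, but the intervals of the most variable ones were wide. In GP/P against WT libraries, per averaged 23.8 ± 1.55 CPM in GP/P and 21.9 ± 3.57 CPM in WT (SD, n = 3 each), a fold of 1.09 with a 95% interval of 0.931 to 1.27. For tim the means were 209 ± 16.2 CPM in GP/P and 184 ± 66.0 CPM in WT, a fold of 1.13 with an interval of 0.656 to 1.96. The missing call does not show that tim was equal in these groups. The other folds in this comparison ran from 0.976 for Pdf to 1.08 for Clk, and 7 of 9 genes lay above 0 on the log2 scale (median 0.08 over the 9 genes and 0.00 over all genes).

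In GP/M against WT libraries, folds ran from 0.959 for Pdf to 1.13 for cwo, with 6 of 9 genes above 0 (median 0.01 over the 9 genes, 0.00 over all). For tim the mean was 184 ± 58.4 CPM in GP/M and 184 ± 66.0 CPM in WT, a fold of 1.00 with an interval of 0.578 to 1.73. In GP/P against GP/M libraries, folds ran from 0.938 for cwo to 1.13 for tim, with 7 of 9 genes above 0 (median 0.04, and 0.00 over all). The intervals of cry and cyc, the least variable of the 9, were narrower: in GP/P against WT they were 0.903 to 1.07 for cry and 0.954 to 1.13 for cyc.

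In none of the 3 comparisons did the libraries of the groups fall apart for a clock gene without overlap (0 of 9 each). Over all genes this was so for 8.48% in GP/P against WT, 4.9% in GP/M against WT and 6.92% in GP/P against GP/M. Within sets, the log2 difference of GP/P to WT had the same sign in 3 of 3 sets for 2 of 9 clock genes, beside 29.3% of all genes. These were Clk (0.09, 0.11 and 0.12 in sets 3, 2 and 1) and per (0.07, 0.00 and 0.32). It held in GP/P against GP/M for 1 of 9, vri (0.00, 0.01 and 0.25), beside 27.1% of genes, and in GP/M against WT for 0 of 9, beside 22.0%. With the set as a block, again 0 of 9 clock genes were called in each comparison (0.0% of genes). The smallest unadjusted p of a clock gene was then 0.0459, for Pdp1 in GP/P against GP/M (adjusted 0.952 in edgeR's quasi-likelihood fit). At an unadjusted p under 0.05 the block fit passed 6.85% of genes in GP/P against WT, 3.5% in GP/M against WT and 4.58% in GP/P against GP/M.

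The authors' deposited table lists 0 genes with an adjusted p under 0.05 for GP/P against WT, 4 for GP/M against WT and 1 for GP/P against GP/M. No clock gene is among them, and the smallest adjusted p of a clock gene in the authors' deposited table is 0.9999.

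**Figure D3:**
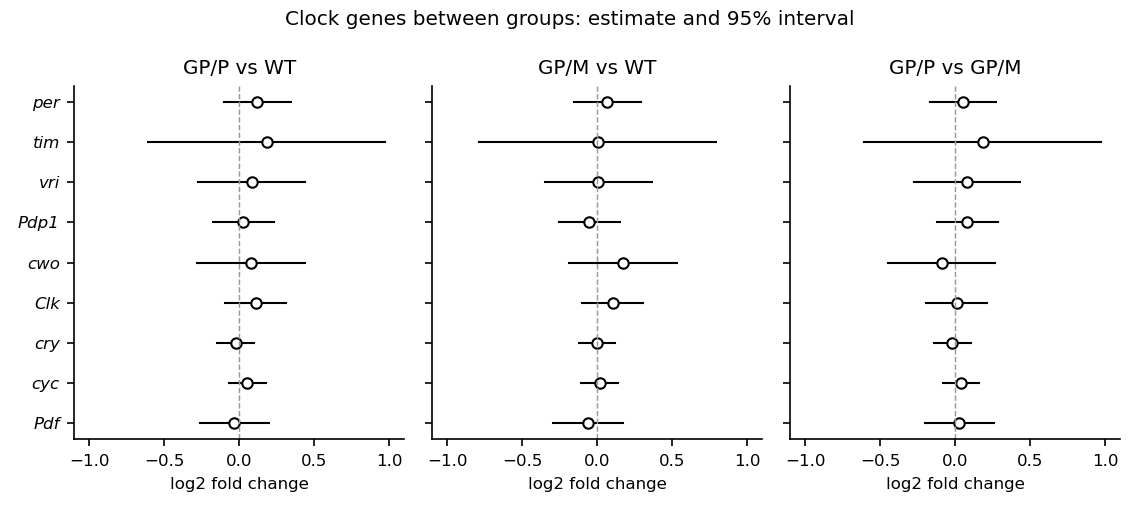
Log2 fold change (horizontal) of the 9 clock genes between the groups, with GP/P over WT in the left panel, GP/M over WT in the middle and GP/P over GP/M on the right, with bars for the 95% interval of the edgeR fit without a block. Every interval spans 0, and those of tim are the widest, 0.656 to 1.96 as folds in GP/P against WT.

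The libraries of a group did differ by set, and several clock genes were called there. In set 2, per, vri and Pdp1 were higher than in set 1. The mean of vri was 99.0 ± 1.63 CPM in set 2 and 74.7 ± 7.04 CPM in set 1 (SD, n = 3 each), a fold of 1.33 (log2 0.41, SE 0.05, adjusted p 7.36e-05 by edgeR's quasi-likelihood test with the group as a term), which ranked 21 of 12913 genes by p. The mean of Pdp1 was 250.1 ± 2.56 CPM in set 2 and 217 ± 16.8 CPM in set 1, a fold of 1.153 (log2 0.20, SE 0.04, adjusted p 0.00737). The mean of per was 25.2 ± 0.698 CPM in set 2 and 20.9 ± 2.29 CPM in set 1, a fold of 1.21 (log2 0.27, SE 0.06, adjusted p 0.0236). So 3 of 9 clock genes were called higher in set 2 and 0 lower, where 1.49% of genes were called higher, 0.984% lower and 2.47% in all. Each of the 3 was higher in 3 of 3 groups.

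The largest fold of a clock gene between set 2 and set 1 was that of tim, 1.67, but it did not pass the test. Its mean was 239 ± 14.2 CPM in set 2 and 146 ± 40.3 CPM in set 1 (log2 0.74, SE 0.19, 95% interval of the fold 1.17 to 2.38, p 0.0153 and adjusted p 0.213 by edgeR's quasi-likelihood test). The log2 difference between the sets was 0.22 in GP/P, 0.96 in GP/M and 1.06 in WT libraries. The adjusted p was 0.0018 with DESeq2 and 0.00389 with edgeR without robust estimation. Without GP/P 1 the log2 fold was 0.95 and the adjusted p 0.00179.

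The other clock genes were not called between set 2 and set 1. Clk averaged 42.2 ± 3.42 CPM in set 2 and 47.2 ± 2.63 CPM in set 1 (fold 0.896, adjusted p 0.244 by edgeR's test), and the folds of cry, cyc, cwo and Pdf were 0.966, 0.988, 1.11 and 0.921. The ranges of the sets did not overlap for per, tim, vri and Pdp1, all higher in set 2, where 10.4% of genes were higher and 19.3% in either direction without overlap. The call of vri held in all 9 fits that left out 1 library. That of Pdp1 was lost without GP/M 1 (log2 0.15, adjusted p 0.108) and without GP/M 2 (log2 0.15, adjusted p 0.126). That of per was lost with DESeq2 (adjusted p 0.142), and without GP/P 2 (log2 0.29, adjusted p 0.0874), GP/M 1 (0.29, 0.0849), GP/M 2 (0.31, 0.0529), WT 1 (0.19, 0.217) or WT 2 (0.20, 0.208).

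In set 3 against set 1, vri and Pdp1 were higher and Pdf was lower. The mean of vri was 87.9 ± 3.65 CPM in set 3 and 74.7 ± 7.04 CPM in set 1, a fold of 1.18 (log2 0.24, SE 0.05, adjusted p 0.00263 by edgeR's quasi-likelihood test). The mean of Pdp1 was 258 ± 6.19 CPM in set 3 and 217 ± 16.8 CPM in set 1, a fold of 1.19 (log2 0.25, SE 0.04, adjusted p 4.31e-04). The mean of Pdf was 8.03 ± 0.221 CPM in set 3 and 9.59 ± 0.609 CPM in set 1, a fold of 0.839 (log2 -0.25, SE 0.09, adjusted p 0.0437). These 3 of 9 genes stand beside 18.7% of all genes called in this comparison, 11.7% higher and 6.92% lower. The same 3 genes had ranges that did not overlap, as had 35.4% of all genes. For tim the fold was 1.34 (95% interval 0.938 to 1.90, adjusted p 0.225), and for per it was 1.09 (adjusted p 0.204).

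The calls of vri and Pdp1 held in all 9 fits that left out a library. That of Pdf held without GP/M 2 and without WT 2, and was lost without GP/P 1 (log2 -0.18, adjusted p 0.219), GP/P 2 (-0.25, 0.0514), GP/P 3 (-0.24, 0.134), GP/M 1 (-0.30, 0.0555), GP/M 3 (-0.31, 0.0597), WT 1 (-0.27, 0.0933) or WT 3 (-0.22, 0.166). It was also lost with limma-voom (adjusted p 0.0519) and with edgeR without robust estimation (0.0505). Without GP/P 1, tim was called too (log2 0.64, adjusted p 0.00283), as it was by edgeR without robust estimation (adjusted p 0.0204).

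The fold of a gene between set 3 and set 1 moved with its exon length over all genes. Among the 245 genes within 25% of the exon length of Pdp1, the median log2 fold was 0.24, against 0.25 for Pdp1 itself. The medians at the lengths of vri, tim and Pdf were 0.10, 0.17 and -0.10, against log2 folds of 0.24, 0.42 and -0.25 for these genes. The part of length in these results was not tested. Between set 2 and set 1 the medians at the lengths of Pdp1, tim, vri and per were 0.06, 0.05, 0.03 and 0.03, against log2 folds of 0.20, 0.74, 0.41 and 0.27.

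In set 3 against set 2, Clk was higher and vri was lower. Clk averaged 49.3 ± 3.92 CPM in set 3 and 42.2 ± 3.42 CPM in set 2, a fold of 1.17 (log2 0.22, SE 0.06, adjusted p 0.0415 by edgeR's quasi-likelihood test). The mean of vri was 87.9 ± 3.65 CPM in set 3 and 99.0 ± 1.63 CPM in set 2, a fold of 0.888 (log2 -0.17, SE 0.05, adjusted p 0.0428). These 2 of 9 genes stand beside 5.92% of all genes called, 4.31% higher and 1.61% lower. At the exon lengths of Clk and vri, the median log2 fold of genes was 0.07 and 0.07. The folds of per and tim were 0.900 (adjusted p 0.158) and 0.800 (adjusted p 0.397), and neither was called. The ranges of the sets did not overlap for Clk and cry, higher in set 3, nor for per, tim, vri and Pdf, lower in set 3, beside 28.7% of all genes.

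Both calls were close to the threshold. That of Clk was lost with DESeq2 (adjusted p 0.0537) and with edgeR without robust estimation (0.0682), and without GP/P 1 (log2 0.22, adjusted p 0.0637), GP/P 2 (0.29, 0.0571), GP/M 1 (0.22, 0.0633), GP/M 2 (0.12, 0.316), GP/M 3 (0.15, 0.251) or WT 3 (0.26, 0.0529). That of vri had adjusted p-values of 0.0419 to 0.0838 over the 6 other settings and was kept in 2 of them. It was lost without GP/P 2 (log2 -0.21, adjusted p 0.0692), GP/P 3 (-0.15, 0.145), GP/M 2 (-0.16, 0.228), GP/M 3 (-0.21, 0.0686), WT 2 (-0.13, 0.172) or WT 3 (-0.14, 0.181). Without GP/P 1, tim was called lower in set 3 (log2 -0.31, adjusted p 0.046).

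To read the evening genes against the morning genes in each library, the mean log2 CPM of Clk and cry was subtracted from that of per, tim, vri, Pdp1 and cwo, and the result was centred on the mean of the 9 libraries. This phase index has no test, and no hour is read from it. The genes were not scaled to a like spread, so tim, with the largest SD (0.38), weighed most in it. It was 0.01, 0.12 and 0.02 in GP/P libraries 1, 2 and 3, -0.35, 0.28 and -0.01 in GP/M libraries, and -0.32, 0.32 and -0.08 in WT libraries. Set 2 had the highest value in every group. GP/M 1 and WT 1 had the lowest values, and GP/P 1, of the same set, lay near the mean of all libraries.

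By set, the index averaged -0.02 ± 0.05 in set 3, 0.24 ± 0.11 in set 2 and -0.22 ± 0.20 in set 1 (SD, n = 3 each). The evening genes alone averaged 0.04, 0.16 and -0.20 in sets 3, 2 and 1, and the morning genes 0.06, -0.08 and 0.02. Set 3 was thus above the mean in both gene groups, while set 2 was above it in the evening genes and below it in the morning genes. In GP/M 2 and WT 2, 5 of 5 evening genes lay above and 2 of 2 morning genes below their own means over the libraries. In GP/M 1 and WT 1, 0 of 5 evening genes lay above their means. Of the morning genes, 0 of 2 lay below their means in GP/M 1 and 1 of 2, Clk, in WT 1. In GP/P 3 and GP/M 3, 5 of 5 evening genes lay above and 0 of 2 morning genes below. In WT 3, of the same set, 1 of 5 evening genes, Pdp1, lay above its mean. The summed neuron and fat body markers were highest in set 3, whereas the evening genes were highest in set 2. In set 3 against set 1, genes of like exon length had median log2 folds of 0.09 to 0.24 for the evening genes. For Clk and cry these medians were 0.09 and -0.03. In set 2 against set 1 they were 0.025 to 0.057 for the evening genes, and 0.025 and 0.001 for Clk and cry. The parts of tissue makeup and of exon length in the index were not tested.

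By group, the index averaged 0.05 ± 0.06 in GP/P, -0.03 ± 0.32 in GP/M and -0.03 ± 0.32 in WT libraries (SD, n = 3 each). The means lay within the spread of the libraries. The narrower range of GP/P came with GP/P 1, which exceeded WT 1 by 0.33 and GP/M 1 by 0.36. In the other sets GP/P differed from WT by 0.10 (set 3) and -0.20 (set 2), and GP/M differed from WT by 0.07, -0.04 and -0.03 in sets 3, 2 and 1. For tim, GP/P minus WT gave log2 differences of 0.24 (set 3), -0.17 (set 2) and 0.66 (set 1). With 3 libraries a group, the difference in spread was not tested.

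**Figure D4:**
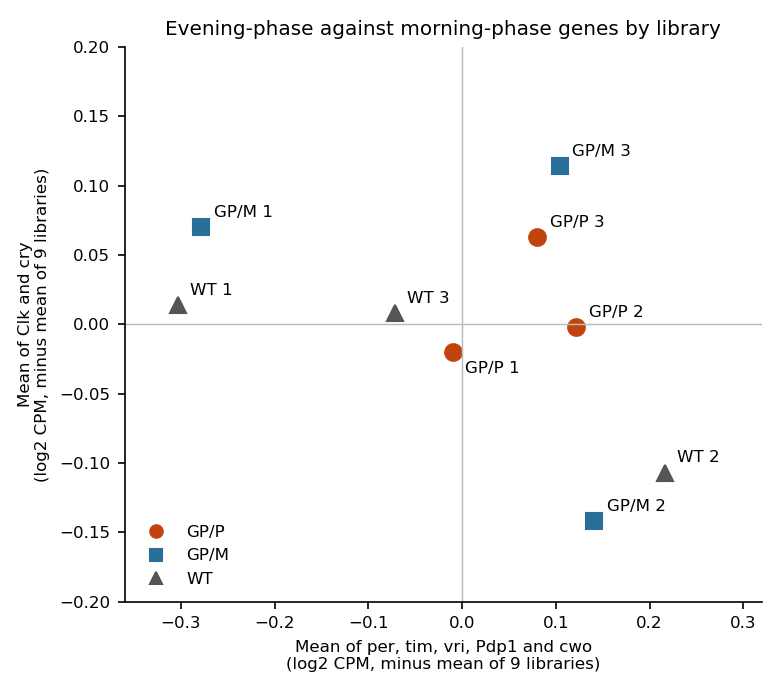
Mean log2 CPM of the evening genes per, tim, vri, Pdp1 and cwo (horizontal) against that of the morning genes Clk and cry (vertical), each minus its mean over the 9 libraries, with 1 point per library marked by group. GP/M 2 and WT 2 lie at the lower right, with the highest index (0.28 and 0.32). GP/M 1 and WT 1 lie at the left, with the lowest (-0.35 and -0.32). Their morning-gene values are 0.07 and 0.01, so WT 1 lies close to the horizontal midline.

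Across the 9 libraries, 3 of the 36 pairs of clock genes were correlated after adjustment, and all lay among per, tim and vri. Libraries of a set share an experiment and are not independent, so the permutation p-values treat as free what may be shared. For tim and vri, Pearson's r was 0.975 (exact permutation p 1.3e-04, adjusted 0.00253) and Spearman's rho 0.917 (exact permutation p 0.00131, adjusted 0.0236). For per and tim, r was 0.902 (exact permutation p 1.41e-04, adjusted 0.00253) and rho 0.900 (p 0.00203, adjusted 0.0243). For per and vri, r was 0.886 (exact permutation p 5.92e-04, adjusted 0.00711) and rho 0.933 (p 7.5e-04, adjusted 0.0236). Without the 2 libraries farthest from the median of the first gene, r was 0.918, 0.904 and 0.911, each with an adjusted exact permutation p of 0.0714 over the remaining 7 libraries. As deviations from the set means, r was 0.94 for tim and vri, 0.713 for per and tim and 0.646 for per and vri.

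No pair of an evening and a morning gene passed (0 of 10, smallest adjusted exact permutation p 0.267). Of these pairs 9 had an r below 0, and the values ran from -0.662 for tim and cry to 0.269 for cwo and Clk. For tim and cry, r was -0.357 without the 2 farthest libraries and -0.873 as deviations from set means. For tim and Clk it was -0.353, and 0.118 as deviations from set means. As such deviations, r of Clk was also above 0 with per (0.637), cwo (0.567) and vri (0.284), and below 0 with Pdp1 (-0.373). That of cry with the evening genes ran from -0.873 (tim) to -0.437 (cwo). Over the 9 libraries, r of Clk and cry was 0.273.

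To ask how far a clock gene moved with the rest of the loop, its r with an index built without it was ranked among 11789 genes, those of the index left out. For tim r was 0.959 and for vri 0.954, each at rank 1. For per it was 0.845 (rank 28), for Pdp1 0.646 (rank 464) and for cwo 0.366 (rank 2330). For cry it was -0.599 (rank 579 from the lowest) and for Clk -0.249 (rank 3238 from the lowest). These ranks describe 9 libraries, and genes are not independent replicates. Because tim varied most, it weighed most in every index that held it. The ranks of vri and per therefore partly repeat their r with tim alone (0.975 and 0.902).

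Outside the clock genes, those with the highest r with the full index were escl, a Polycomb group gene (0.941), Hel25E, an RNA helicase gene (0.931), CG10357 (0.929), CG5397 (0.925) and CG15449 (0.917). Of these, CG15449 had the widest range of levels, the highest library having 1.71 times the lowest. The lowest r were those of CG33489 (-0.971), CG10550 (-0.936), tipE, which encodes an auxiliary subunit of a sodium channel (-0.927), Ance-4 (-0.925) and Ance-5 (-0.924). The levels of CG33489 differed over the libraries by a factor of 1.09. As deviations from set means, r was 0.654 to 0.795 for the first 5 genes and -0.921 to -0.678 for the last 5. All were picked for their r with the index among 11795 genes over the same 9 libraries. Their r within sets is therefore no separate evidence that they move with the clock genes. The levels of escl and CG10357 were low, with means of 3.84 and 2.98 CPM.

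Beyond the 9 clock genes, 5 lists of clock-related genes were followed. They held 13 matched genes of kinases, phosphatases and protein turnover, 8 of translation and chromatin partners and 9 of light and temperature input. The others held 17 genes of the output of clock neurons and 8 clock-controlled genes outside the loop. Pdfr and Slob stand in 2 lists each, and norpA and trpl also stand among the photoreceptor markers. In each group comparison 0 genes of every list were called by edgeR's quasi-likelihood test. The gene with the smallest p was Ubpy (1.049-fold), brm (1.07-fold), Rh7 (0.894-fold), Dh44-R1 (0.857-fold) and E23 (1.12-fold) for the 5 lists in GP/P against WT. In GP/M against WT it was tws (0.964-fold), Atx2 (0.950-fold), Rh7 (0.845-fold), Dh44-R1 (0.803-fold) and E23 (1.13-fold). In GP/P against GP/M it was jet (1.07-fold), Atx2 (1.08-fold), TrpA1 (0.877-fold) and, for the last 2 lists, Slob (1.06-fold). The most different of these, Dh44-R1, a receptor gene of the DH44 peptide, had 2.51, 2.91 and 3.04 CPM in GP/P libraries, 2.68, 2.54 and 2.73 CPM in GP/M libraries and 3.999, 2.97 and 2.90 CPM in WT libraries. WT 1 was high and the other 8 libraries lay close together.

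In set 2 against set 1, where per, vri and Pdp1 were higher and 2.47% of all genes were called (1.49% higher, 0.984% lower), 0 of 13 turnover genes, 0 of 8 translation and chromatin partners and 0 of 9 input genes were called. The smallest p in these lists belonged to sgg (1.07-fold), gw (1.09-fold) and Pdfr (0.918-fold). Of the 17 output genes 1 was called lower in set 2, itp, which encodes ion transport peptide (0.874-fold, adjusted p 0.0417), and of the 8 clock-controlled genes 1, to (takeout; 0.874-fold, adjusted p 0.0151). For to, set 2 had 93.9, 97.8 and 92.3 CPM in GP/P, GP/M and WT libraries, against 101, 114 and 110 CPM in set 1. The call of itp was lost with DESeq2 (adjusted p 0.143) and with edgeR without robust estimation (0.0688), and held in 3 of 9 fits that left out a library, and that of to held in 4 of 9. Median log2 folds of the 5 lists were 0.03, 0.11, -0.04, -0.06 and -0.06, beside 0.15 for the 9 clock genes and 0.01 for all genes.

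In set 3 against set 1, 6 of 13 turnover genes and 7 of 8 translation and chromatin partners were called higher and none lower, beside 11.7% of all genes called higher. Among the turnover genes were wdb and tws, which encode regulatory subunits of protein phosphatase PP2A (1.22-fold, adjusted p 8.89e-05, and 1.11-fold, 0.00679), sgg, which encodes the kinase that phosphorylates TIM (1.199-fold, 3.23e-04), ctrip, a ubiquitin ligase gene (1.17-fold, 0.00714), and dco, the PER kinase gene doubletime (1.09-fold, 0.0395). Among the partners were nej, which encodes the acetyltransferase CBP (1.32-fold, 8.42e-05), gw, a gene of miRNA silencing (1.19-fold, 2.32e-04), tyf, which promotes translation of per (1.26-fold, 3.31e-04), Hnf4, a nuclear receptor gene (1.13-fold, 0.0041), and pAbp, which encodes a poly(A)-binding protein (1.09-fold, 0.0113). All these p-values are adjusted ones of edgeR's quasi-likelihood test. For nej, set 3 had 76.2, 78.3 and 75.5 CPM in GP/P, GP/M and WT libraries, against 59.9, 60.5 and 54.3 CPM in set 1.

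The median log2 fold of genes of like exon length was 0.26 for nej (log2 fold 0.40), 0.24 for sgg (0.26), 0.24 for ctrip (0.23), 0.23 for tyf (0.33), 0.19 for wdb (0.28), 0.15 for gw (0.25), 0.13 for Hnf4 (0.18), 0.12 for tws (0.15) and 0.10 for dco (0.13). The gene ctrip lay just below the genes of its length and the other 8 above. All were named because they were called higher in this comparison. That choice favours folds above the median, so the tally is no separate evidence. No such value is given for pAbp, and the part of length was not tested. The call of dco was lost with DESeq2 (adjusted p 0.141) and held in 2 of 9 fits that left out a library, that of tws in 7 and that of pAbp in 8. Those of wdb, sgg, ctrip, nej, gw, tyf and Hnf4 held in 9 of 9.

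Of the input genes 2 of 9 were called higher in set 3 than in set 1, beside 11.7% of all genes called higher and 6.92% lower. They were norpA, which encodes the phospholipase C of phototransduction (1.19-fold, adjusted p 0.00101 by edgeR's test), and nocte, needed for entrainment by temperature (1.26-fold, 0.00102). Of the output genes 4 of 17 were higher and 1 lower. The 4 encode channels or their partners: CG18437, the unc80 gene (1.22-fold, 0.00144), slo (1.16-fold, 0.002), Ih (1.150-fold, 0.00283) and na (1.21-fold, 0.0137). The lower one was npf, which encodes neuropeptide F (0.810-fold, 0.0318). It had 6.62, 5.39 and 5.66 CPM in set 3 and 7.498, 6.60 and 7.80 CPM in set 1 (GP/P, GP/M and WT libraries), and so fell with Pdf. Of the clock-controlled genes cu, the fly nocturnin gene, was higher (1.12-fold, 0.00412), and trpl (0.894-fold, 0.00432) and to (0.887-fold, 0.00714) were lower. The calls of npf, na and to held in 4, 6 and 7 of 9 fits that left out a library, and the others named held in 9 of 9. The median log2 fold of genes of like exon length was 0.22 for CG18437 (log2 fold 0.29), 0.23 for slo (0.21), 0.25 for Ih (0.20), 0.19 for na (0.28), 0.19 for norpA (0.25) and 0.23 for nocte (0.33), so slo and Ih lay below the genes of their length. For npf it was -0.11 (log2 fold -0.30), for cu 0.04 (0.17), for trpl 0.07 (-0.16) and for to -0.07 (-0.17). These genes too were named because they were called, which favours folds away from the median. The neuron markers, which were highest in set 3, moved the same way as the channel genes and the opposite way from Pdf and npf, and the parts of neuronal RNA and of length in these results were not tested.

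In set 3 against set 2, 3 of 13 turnover genes, 3 of 8 partners, 3 of 9 input genes, 3 of 17 output genes and 1 of 8 clock-controlled genes were called higher and 0 lower, beside 4.31% of all genes called higher. They were wdb (1.14-fold), sgg (1.12-fold) and ctrip (1.14-fold), nej (1.21-fold), tyf (1.16-fold) and pAbp (1.08-fold), norpA (1.149-fold), nocte (1.16-fold) and Pdfr (1.149-fold, in 2 lists), Ih (1.16-fold) and slo (1.12-fold), and Gclc, a glutathione synthesis gene (1.11-fold), with adjusted p-values of 0.00702 to 0.0399 by edgeR's quasi-likelihood test. Each of these 12 calls was lost without GP/M 2, where adjusted p-values ran from 0.0831 to 0.291, and without GP/M 3, where they ran from 0.0542 to 0.288, and 10 of them were lost without GP/P 2 as well. Those of Gclc (adjusted p 0.0592) and Pdfr (0.112) were lost with DESeq2. Those of Gclc, nocte, pAbp, Pdfr and sgg were lost with edgeR without robust estimation, with adjusted p-values of 0.0508 to 0.0664. Over all genes, 49 were called in this comparison without GP/M 2, against 764 with it. Genes of like exon length had a median log2 fold of 0.13 for wdb (log2 fold 0.19) and 0.18 for sgg (0.16). For ctrip, nej and tyf the median was 0.18 (0.19), 0.19 (0.27) and 0.18 (0.22). For norpA, nocte and Pdfr it was 0.13 (0.20), 0.17 (0.21) and 0.07 (0.20). For Ih, slo and Gclc it was 0.18 (0.22), 0.16 (0.17) and 0.065 (0.147). Of these only sgg lay below the genes of its length. All were named because they were called higher, which favours folds above the median. No such value is given for pAbp, and the part of length was not tested.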

How the data were processed

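Raw read counts per gene, deposited by the authors in 3 tables per the file headers, were used for 9 libraries; 18 further columns of normalised values were not used here. The authors' log2 fold changes and p-values are quoted only as deposited. Per the submitters' processing notes, Novoalign, DESeq and the build dm3 were used, in roles and versions those notes as held here leave out; the labels' protocols give Trizol extraction and polyA selection. Strand and multimapping rules are not given in the sources used here. Counts of a library did not differ between tables (0 values), and 0 library pairs were identical.

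Genes passing filterByExpr (12913 of 13140) were tested with edgeR 4.0.16 (TMM, robust quasi-likelihood fit over all 9 libraries, Benjamini-Hochberg over all tested genes, threshold 0.05) in R 4.3.3. Group contrasts had no block, and set contrasts had the group as a term. The common spread (biological coefficient of variation) was 4.36% in the fit with the set as a block and 6.56% in the other. Log2 CPM used a prior count of 2. DESeq2 1.42.0, limma-voom (limma 3.58.1), other scaling and filters, and leaving out each library were alternatives. The code was tested on simulated data.

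Libraries with the same number deviated together from their group means (r of 0.118 to 0.423, 9 of 9 pairs over 0.1), whereas the 18 other pairs had r of -0.397 to 0.067; the numbers come from the titles, and the series design ties them to experimental repeats. The 9 clock genes and the lists were chosen with earlier results of these data known. Named besides the 9 were, of each list, genes past the threshold (up to 5 by p) or else the 1 with the smallest p, and the 5 genes with the highest and the 5 with the lowest r with the phase index. Exon lengths (12627 identifiers) and overlaps come from the BDGP6 annotation of Ensembl. Counting errors cover counting only.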

Additional observations from a re-analysis of the deposited data

How the results depend on the processing

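Of the 459 fits of clock genes in group comparisons under other settings or with a library left out, 0 had an adjusted p under 0.05 by any tool (smallest 0.757); the replicate block called 0 genes in each comparison and changed no call. Genes called were 1 in GP/P against WT with DESeq2 and the replicate block (CG43319), and 1379 in set 3 against set 1 and 456 in set 3 against set 2 with DESeq2 (2409 and 764 with edgeR). Leaving out 1 library gave 0 to 1 genes in each group comparison (GstD2 against WT without WT 3, CR43263 in GP/P against GP/M without GP/M 3), 1256 (without GP/M 3) to 2456 in set 3 against set 1, 49 (without GP/M 2) to 1150 (without WT 1) in set 3 against set 2, and 112 (without GP/P 2) to 417 in set 2 against set 1. The DESeq2 with replicate block and the non-robust fits were chosen after seeing the data.

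The log2 folds of the following uncalled genes turned sign with 1 library left out, and the others named kept theirs. In GP/P against WT they ran from -0.0739 to 0.0182 (cry), -0.0399 to 0.0798 (Pdp1), -0.14 to 0.0416 (Pdf), -0.0433 to 0.48 (tim), -0.0276 to 0.22 (vri), -0.0269 to 0.25 (cwo) and -0.30 to 0.0115 (Rh7). In GP/M against WT they ran from -0.0181 to 0.0414 (cyc), -0.12 to 0.0492 (Pdp1), -0.23 to 0.30 (tim), -0.0505 to 0.0416 (cry), -0.10 to 0.14 (vri), -0.00119 to 0.22 (Clk) and -0.046 to 0.19 (per). In GP/P against GP/M they ran from -0.12 to 0.11 (Clk), -0.0548 to 0.0208 (cry), -0.0846 to 0.10 (Pdf), -0.00508 to 0.0944 (per), -0.04 to 0.41 (tim), -0.0537 to 0.18 (vri), -0.0238 to 0.14 (Pdp1) and -0.19 to 0.0569 (cwo). In set 3 against set 1 they ran from -0.0558 to 0.0672 (cry), -0.0792 to 0.016 (cyc), -0.0109 to 0.11 (Clk) and -0.0395 to 0.32 (cwo), in set 3 against set 2 from -0.0574 to 0.0377 (cyc) and -0.19 to 0.18 (cwo), and in set 2 against set 1 from -0.0514 to 0.0201 (cyc), -0.12 to 0.000175 (cry) and -0.0502 to 0.25 (cwo). In set 3 against set 2, cyc was 0.000112 with DESeq2 size factors and cwo 0.00695 without the group term.

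The phase index of WT 1 was -0.48 with per and tim alone as evening genes (-0.32 with all 5). Without the 2 farthest libraries r was 0.904 for per and tim, 0.911 for per and vri and 0.918 for tim and vri, none past the threshold with 7 libraries; it turned to 0.834 for Pdp1 and cry and to -0.241 for cwo and Clk. As deviations from set means it turned to 0.637 (per and Clk), 0.118 (tim and Clk) and 0.284 (vri and Clk). The cause of these changes was not tested. Depth limits Pdf most, with 172 to 243 counts per library.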
